A study of Mus musculus with 6 samples.

Results

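S100 and annexin transcripts were compared between macrophages of ITGA5 fl/fl and Myα5KO hearts, to examine whether loss of the α5 integrin chain altered the calcium-binding proteins of the infarct macrophage. The group was chosen by gene name and held 5 S100 genes, S100a4, S100a6, S100a10, S100a11 and S100a13, and 5 annexin genes, Anxa1, Anxa2, Anxa3, Anxa4 and Anxa5. These were 10 of the 54532 genes in the count table. S100a8 and S100a9 were not part of the group. The libraries were made from polyadenylated RNA of cardiac cells that lacked Ly6G and carried CD11b, harvested 7 days after permanent coronary occlusion in 12-week-old C57BL/6 mice. All 6 libraries came from animals with both Itga5 alleles flanked by recombination sites. The 3 ITGA5 fl/fl libraries came from mice without Cre, in which the gene was intact. The 3 Myα5KO libraries came from mice that also carried Cre recombinase at the lysozyme M locus, which removes Itga5 in myeloid cells at large and not in macrophages alone.

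S100 proteins are small dimeric proteins with EF-hand loops that change shape when they bind calcium and then grip target proteins. Annexins bind the acidic phospholipids of membranes in the presence of calcium through a folded core, and each carries a distinct N-terminal tail. Several S100 proteins dock onto such a tail, as S100A10 does on annexin A2 and S100A11 on annexin A1. In macrophages members of both families serve in membrane repair, in vesicle traffic, in plasminogen activation at the cell surface and in the clearance of dying cells.

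None of the 10 transcripts passed the test between ITGA5 fl/fl and Myα5KO macrophages (0 of 10 at an adjusted p of 0.05 or less by edgeR's quasi-likelihood test). Of all 14522 genes tested, 8.75% passed it, 3.56% with higher and 5.19% with lower expression in Myα5KO cells. At an unadjusted p under 0.05 stood 2 of the 10, Anxa1 and Anxa3, against 23.1% of all tested genes. DESeq2 also called 0 of the 10, though it gave S100a4 no adjusted p, and placed 2 below an unadjusted p of 0.05. The estimates were small. The median log2 fold change (Myα5KO over ITGA5 fl/fl) of the 10 genes was -0.05, against 0.01 for all tested genes, and the median size of the change regardless of sign was 0.08, against 0.15. The 2 sets were not matched by counts, so these medians cannot tell the 10 genes from others of like abundance. Of the 10 estimates 3 were above 0 and 7 below. With 10 of 10 genes tested by edgeR, no member was lost to its filter on low counts.

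The sequences shown first are those that bear on how far the counts can be read and on which motif letters the start regions hold. The transcript of S100a4 runs through 3 exons, and the annotation (GENCODE M21, GRCm38) places a second model on the same strand, Gm42674, whose last 2 of 4 exons lie on those of S100a4. In the coding sequence of S100a4 below (chr3:90605012-90605898, plus strand, an intron left out, 300 of 303 bases), capitals mark the bases that belong to S100a4 alone.
S100a4 coding sequence: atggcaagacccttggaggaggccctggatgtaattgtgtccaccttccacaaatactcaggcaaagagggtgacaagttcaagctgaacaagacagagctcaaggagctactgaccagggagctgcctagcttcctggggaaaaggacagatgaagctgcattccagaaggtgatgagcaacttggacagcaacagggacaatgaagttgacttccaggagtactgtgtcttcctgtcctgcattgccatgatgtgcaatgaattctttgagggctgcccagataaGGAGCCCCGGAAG
Lower case fills nearly the whole run, since 287 of the 303 coding bases are shared. RefSeq start regions (GRCm38.p6), each of 300 bases that ran from 250 before the start to 50 after it, were at hand for 8 of the 10 genes, with 2 regions for Anxa4 and 9 in all. Motif letters were sought in the whole region. Of these, the 150 bases before the start are given for Anxa1 (chr19:20390672-20390821, minus strand), Anxa2 (chr9:69453533-69453682, plus strand) and S100a11 (chr3:93520346-93520495, plus strand), which include both genes with an AP-1 match and the gene with the largest estimate. Capitals mark matches to the AP-1 letters TGANTCA, the Sp1 letters GGGCGG and the TATA letters TATAAA, each sought on both strands.
Anxa1: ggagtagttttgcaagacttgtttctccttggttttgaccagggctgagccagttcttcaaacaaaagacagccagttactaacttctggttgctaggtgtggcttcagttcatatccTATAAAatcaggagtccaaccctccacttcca
Anxa2: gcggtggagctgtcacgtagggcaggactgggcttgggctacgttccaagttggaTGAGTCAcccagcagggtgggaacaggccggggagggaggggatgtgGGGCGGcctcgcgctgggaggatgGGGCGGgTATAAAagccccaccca
S100a11: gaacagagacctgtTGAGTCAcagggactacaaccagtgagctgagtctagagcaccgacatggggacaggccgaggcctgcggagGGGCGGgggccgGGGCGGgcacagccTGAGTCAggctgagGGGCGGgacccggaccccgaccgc
The AP-1 letters occurred in 2 of the 9 regions, those of Anxa2 and S100a11, and in 7.81% of all 32851 regions of 300 bases. The Sp1 letters occurred in 3 of the 9, of Anxa2, S100a11 and 1 of Anxa4 (35.66% of all regions), and the TATA letters in 3 of the 9, of Anxa1, Anxa2 and S100a4 (13.62%). The letters of the antioxidant response element, TGANNNNGC, occurred in 3 of the 9, both of Anxa4 and that of S100a4 (41.34%). The match of Anxa4 to Sp1, those to the antioxidant response element and 1 further Sp1 match of Anxa2 lie in regions or bases not printed here. A match is a description of the sequence and says nothing of binding.

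Totals lay between 15424451 and 18419287 counts per library. The targeted gene was checked first. Itga5 was at 653, 568 and 599.6 CPM in ITGA5 fl/fl libraries and at 49.99, 48.96 and 47.1 CPM in Myα5KO libraries (CPM, counts relative to a library total corrected by its TMM factor), which left 8.02% of the control level (adjusted p = 4.42e-12, edgeR). Macrophage markers were abundant in all 6 libraries, with Cd14 and C1qb at the top of the list and Csf1r between 1995 and 2301 CPM. Ly6g had 0 to 2 counts per library. By the methods of the study, hearts of individual mice were digested separately, and the p-values measure the spread between these libraries. In such bulk RNA, fewer cells of a type and less RNA per cell cannot be told apart.

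Per length, Anxa5 was the most abundant of the 10 transcripts. Its deposited FPKM lay between 339 and 389 over the 6 libraries, and its mean was 1.94 times that of S100a11, which lay between 172 and 202 FPKM. Both stood clear of every gene below them. Anxa2 (103 to 127 FPKM), S100a10 (92.4 to 116), S100a6 (77.7 to 114) and Anxa1 (71.1 to 90.5) followed with ranges that overlapped from each gene to the next. A gap of 1.86 times separated Anxa1 from the next trio. Anxa3 (40.8 to 47.9 FPKM), S100a13 (37.4 to 48.9) and Anxa4 (37.4 to 42.8) could not be ordered beyond their spread. S100a4 came last in deposited FPKM, at 1.27 to 2.57, with Anxa4 21.7 times higher. Most of its coding bases are shared with Gm42674, and the rule for counting shared reads is not stated. The value may therefore not give the level of S100a4, and the part of the overlap was not tested.

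**Figure D1:**
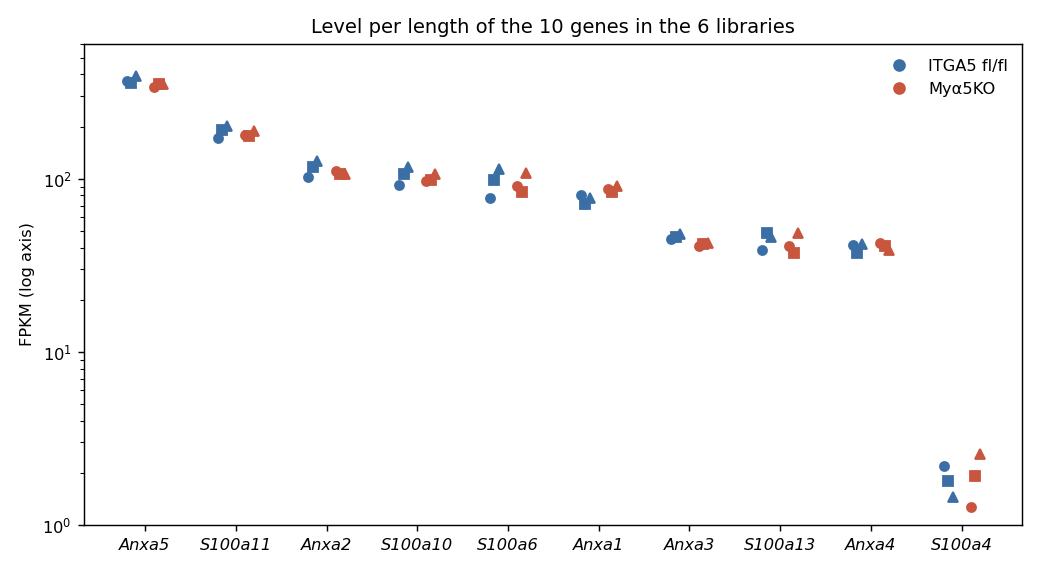
Deposited FPKM (log axis) of the 10 genes, ordered by their mean, with 1 point per library (blue, ITGA5 fl/fl; red, Myα5KO; circle, square and triangle for replicates 1, 2 and 3). Anxa5 and S100a11 stood above all others in every library. S100a4 lay between 1.27 and 2.57 FPKM, a value that the overlap with Gm42674 may affect, which was not tested.

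Together the 10 genes held 0.188%, 0.197% and 0.211% of all counts in ITGA5 fl/fl libraries 1, 2 and 3 and 0.202%, 0.198% and 0.211% in Myα5KO libraries. The group means were 0.198% ± 0.012 and 0.204% ± 0.0068 (SD, n = 3 each; exact two-sided permutation p = 0.4, where the smallest p that 3 against 3 can give is 0.1). The 5 annexins made up most of it, with 0.16% ± 0.0073 and 0.165% ± 0.0030 of counts. The 5 S100 genes held 0.0379% ± 0.0049 and 0.0389% ± 0.0038. The control library with the lowest share was ITGA5 fl/fl replicate 1 in each of these sums. Without it the difference in the share of all 10 genes turned from 0.0052 to -0.00018 percentage points.

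**Figure D2:**
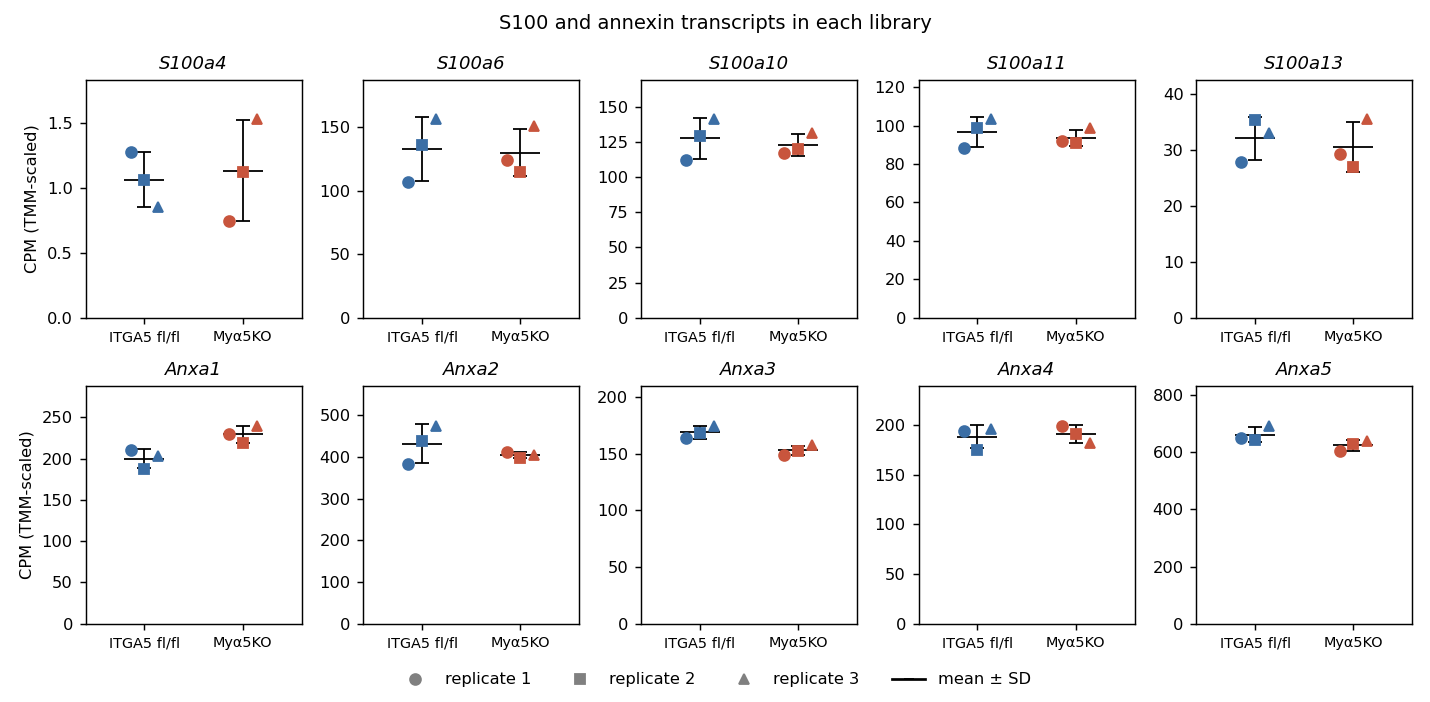
TMM-scaled CPM of each gene, 1 panel per gene, with each library as a point (circle, square and triangle for replicates 1, 2 and 3) and the group mean ± SD in black (n = 3 each); axes start at 0. The points of the groups did not overlap for Anxa1, Anxa3 and Anxa5, and overlapped for the other 7 genes.

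The S100 genes lie on chromosome 3 (GRCm38). S100a6 (90612882 to 90624181, plus strand) encodes calcyclin, named for its appearance in cycling cells. It gave 106.5, 135.7 and 156.2 CPM in ITGA5 fl/fl libraries 1 to 3 and 124.6, 114.5 and 150.8 CPM in Myα5KO libraries. The Myα5KO values lay within the range of the controls. The estimate on the log2 scale was -0.03 ± 0.12 (SE, adjusted p = 0.905, edgeR), with a 95% interval of the fold from 0.814 to 1.17.

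S100a10 (93555080 to 93564643, plus strand) encodes the partner of annexin A2, an S100 protein whose loops have lost the ability to bind calcium and which is held in the active shape. Its values were 112.3, 129.9 and 141.4 CPM in controls and 117.2, 120.2 and 131.9 CPM in Myα5KO macrophages. Again every Myα5KO library fell between the lowest and the highest control. Its log2 fold change was -0.06 ± 0.084 (SE, adjusted p = 0.747, edgeR), and the interval of the fold ran from 0.850 to 1.09. S100a11 (93520488 to 93526287, plus strand), whose product binds the tail of annexin A1, gave 88.2, 98.7 and 103.3 CPM against 92.0, 90.8 and 98.6 CPM. Its log2 fold change was -0.05 ± 0.072 (SE, adjusted p = 0.760, edgeR), with an interval of the fold from 0.870 to 1.08. S100a11 also carries a limit of annotation. Of its stretches of 50 bases, 41.1% occur word for word in 3 other gene models, the closest of which, Gm12854, had at most 16 counts. How reads that map to several places were counted is not stated in the sources used here.

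S100a13 (90514435 to 90524581, plus strand) encodes a protein that takes part in the release of FGF1 and interleukin 1α, which lack a signal peptide. It gave 27.8, 35.2 and 32.95 CPM in controls and 29.1, 26.9 and 35.4 CPM in Myα5KO cells. The groups overlapped over nearly their whole range, and the log2 fold change was -0.07 ± 0.11 (SE, adjusted p = 0.748, edgeR; interval of the fold 0.805 to 1.12).

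S100a4 (90603771 to 90606045, plus strand), also known as fibroblast-specific protein and expressed by many macrophages, had few counts. They numbered 19, 18 and 15 in ITGA5 fl/fl libraries and 14, 21 and 29 in Myα5KO libraries. Both the lowest and the highest count belonged to Myα5KO libraries. The log2 fold change was 0.10 ± 0.35 (SE, adjusted p = 0.895, edgeR). Its interval of the fold, 0.641 to 1.80, was the widest of the 10, and changes within it could not be told from no change at this depth. The overlapping model Gm42674 had 0 counts in all 6 libraries. It shares 302 of the 584 exonic bases of S100a4 (51.7%), in the exons that hold the lower-case letters above. Of the 349 positions that a fragment of 150 bases can take on the transcript, 11 (3.15%) touch only bases of S100a4, and of the 299 positions of a fragment of 200 bases, 0. Fragments of this size range were selected for the libraries. Which rule the counting followed for reads on both models is not stated in the sources used here, and the part of the overlap in the low count was not tested.

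**Figure D3:**
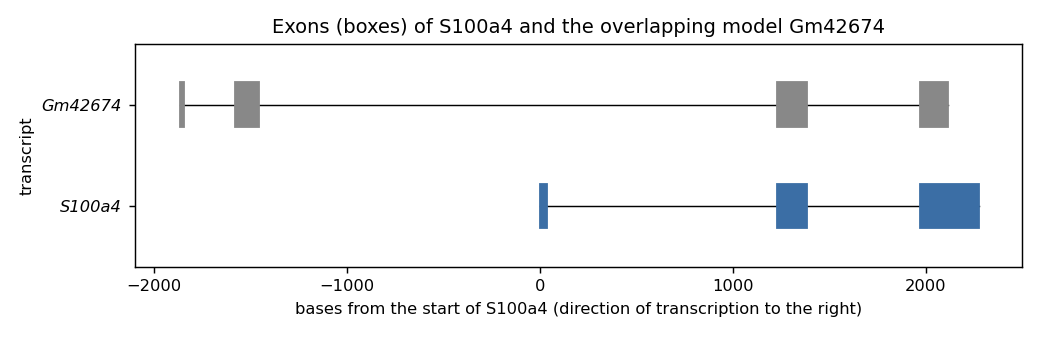
Exons (boxes) of the S100a4 coding transcript and of Gm42674, in bases from the start of S100a4 in the direction of transcription. The second and the last exon of S100a4 are overlaid by exons of Gm42674, and only the first exon and the end of the last belong to S100a4 alone.

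Of the annexins, Anxa1 and Anxa3 had 95% intervals of the fold that left out 1, before any correction over genes. Anxa1 (chromosome 19, 20373428 to 20390944, minus strand) encodes a glucocorticoid-regulated protein that limits leukocyte recruitment and signals through formyl peptide receptors. It gave 210.2, 187.0 and 203.3 CPM in ITGA5 fl/fl libraries and 229.4, 219.4 and 240.2 CPM in Myα5KO libraries. Every Myα5KO value lay above every control value. The groups were without overlap, in either direction, for 3 of the 10 genes (Anxa1, Anxa3 and Anxa5) and for 28.6% of all tested genes. The log2 fold change was 0.20 ± 0.069 (SE), a fold of 1.15 with an interval from 1.04 to 1.27. It did not pass the correction over all genes (unadjusted p = 0.0125, adjusted p = 0.0961, edgeR). Scaled by library totals alone, which moved the median of all tested genes from 0.01 to 0.10, the log2 fold change of Anxa1 was 0.28 (adjusted p = 0.0187, edgeR). Under the other alternatives its adjusted p ran from 0.0791 to 1.

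Anxa3 (chromosome 5, 96793339 to 96845966, plus strand) encodes an annexin that is abundant in the granules of neutrophils. Its values were 164.0, 168.1 and 174.9 CPM in controls and 149.1, 152.8 and 157.4 CPM in Myα5KO macrophages. The groups did not overlap, and the spread among controls was the narrowest of the 10 genes, with a coefficient of variation of 3.27%. The log2 fold change was -0.14 ± 0.062 (SE), with an interval of the fold from 0.826 to 0.994, and did not pass the correction (unadjusted p = 0.0381, adjusted p = 0.184, edgeR). With library totals alone it was -0.06 (adjusted p = 0.542, edgeR). Summed neutrophil markers lay the other way, at 192 to 234 CPM in controls and 261 to 393 CPM in Myα5KO libraries, and their part in the values of Anxa3 was not tested.

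Anxa5 (chromosome 3, 36448923 to 36475894, minus strand) encodes the annexin that binds phosphatidylserine on dying cells. It gave 651.5, 641.9 and 693.9 CPM in controls and 604.3, 628.8 and 641.2 CPM in Myα5KO libraries. The groups were apart by less than 1 CPM between the lowest control and the highest Myα5KO library. The log2 fold change was -0.08 ± 0.067 (SE, adjusted p = 0.493, edgeR), with an interval of the fold from 0.853 to 1.04. Anxa2 (chromosome 9, 69453620 to 69491795, plus strand), whose product assembles plasminogen and its activator at the cell surface, gave 383.5, 438.2 and 475.5 CPM against 412.3, 397.7 and 405.4 CPM. The Myα5KO libraries lay close together, within the wide range of the controls. Its log2 fold change was -0.09 ± 0.079 (SE, adjusted p = 0.520, edgeR; interval of the fold 0.832 to 1.05). Anxa4 (chromosome 6, 86736840 to 86793584, minus strand), a membrane-binding annexin abundant in epithelia, gave 193.9, 175.0 and 195.7 CPM in controls and 199.3, 191.0 and 181.9 CPM in Myα5KO cells. The log2 fold change was 0.02 ± 0.069 (SE, adjusted p = 0.8997, edgeR; interval of the fold 0.915 to 1.12). Small parts of Anxa2 (2.6%), Anxa3 (3.1%) and Anxa4 (1.6%) share exonic bases with other models.

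For 8 of the 10 genes, all but Anxa1 and Anxa3, the larger range within a genotype exceeded the difference of group means. Anxa5 is among the 8 although its groups did not overlap. The share of all tested genes for which this holds was not computed, so the count is no trait of these genes. For S100a6 the range of log2 CPM within the controls was 0.55, against a difference of group means of -0.02. For Anxa2 these were 0.31 and -0.09. ITGA5 fl/fl replicate 1 was the lowest control for 6 genes (S100a6, S100a10, S100a11, S100a13, Anxa2 and Anxa3) and the lowest of all 6 libraries for 4 of them (S100a6, S100a10, S100a11 and Anxa2). ITGA5 fl/fl replicate 3 was the highest control for 7 genes. Among Myα5KO libraries, replicate 3 was the highest for 8 genes. How many of all tested genes rank the libraries in these ways was not computed. These counts are therefore no trait of the 10 genes either. ITGA5 fl/fl replicate 1 also stood apart from the other controls in the body cavity macrophage list, with a sum of 278 CPM. The other controls gave 512 and 495 CPM, and Myα5KO libraries 232 to 309 CPM. Of the 10 genes of that list 6 were called lower in Myα5KO cells, as were 5.19% of all tested genes. Fabp4 and Cd5l led the list, and which cells its sum reflects was not tested. Fn1, the fibronectin gene and the top gene of the monocyte list, gave 2446 CPM in that library and 4042 and 3653 CPM in the other controls. In the sums of fibroblast, neutrophil, endothelial, dendritic cell, and T and NK cell markers, ITGA5 fl/fl replicate 1 was instead the highest control. Its fibroblast sum was 2451 CPM, against 2118 and 2185 CPM in the other controls. It was the lowest control in the sums of macrophage, monocyte and B cell markers. The part of these lists or of Fn1 in the values of the S100 genes was not tested. Without ITGA5 fl/fl replicate 1, the log2 fold changes of S100a6, S100a10, S100a11 and Anxa2 were -0.17, -0.14, -0.11 and -0.17, and none passed the test (adjusted p from 0.218 to 0.441, edgeR). Without ITGA5 fl/fl replicate 3 they were 0.10, 0.02, 0.0037 and -0.02.

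**Figure D4:**
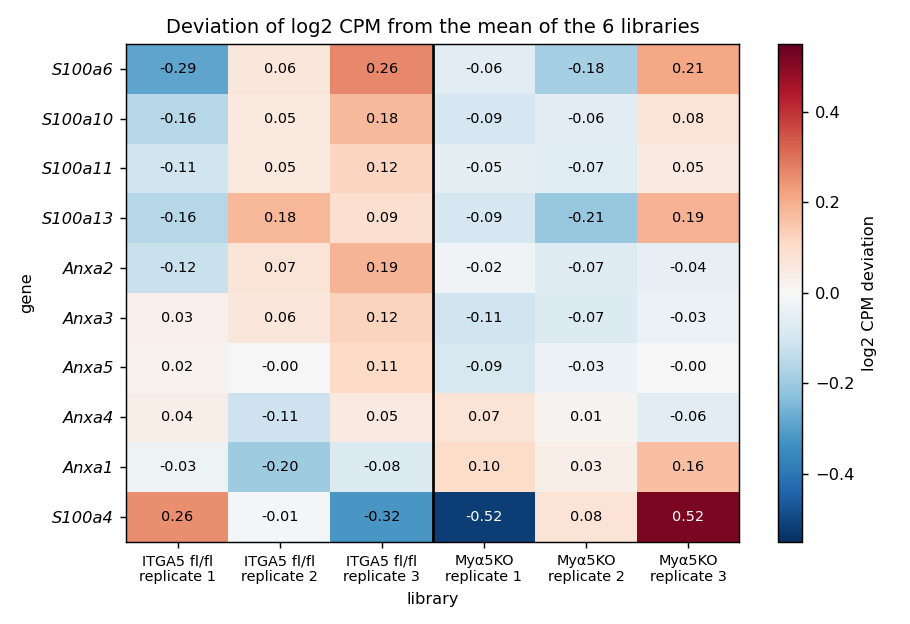
Log2 CPM of each gene in each library as the deviation from its mean over the 6 libraries (blue, lower; red, higher; the number is the deviation). S100a6, S100a10, S100a11, S100a13 and Anxa2 were low in ITGA5 fl/fl replicate 1, while Anxa1 (higher in Myα5KO) and Anxa3 (lower) had opposite signs in all libraries of the groups.

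The balance of partner transcripts was then compared within each library, where scaling plays no part. The ratio of S100a10 to Anxa2 in FPKM was 0.901, 0.912 and 0.915 in ITGA5 fl/fl libraries and 0.875, 0.931 and 1.00 in Myα5KO libraries. The mean log2 ratio differed by 0.04 (exact two-sided permutation p = 0.7, adjusted over the 2 ratios 0.7). The controls agreed closely, although the levels of both genes differed among them, and the Myα5KO ratios spread to both sides. The ratio of S100a11 to Anxa1 was 2.14, 2.69 and 2.59 in controls and 2.05, 2.11 and 2.10 in Myα5KO libraries. All 3 Myα5KO ratios lay below all controls, with a mean difference in log2 ratio of -0.24, which is at the smallest p of this design (exact two-sided permutation p = 0.1, adjusted 0.2). Group means of log2 CPM differed by 0.20 for Anxa1 and by -0.04 for S100a11, so the ratio mostly repeats the difference of Anxa1. The limit of annotation given for S100a11 holds here too. The control nearest to the Myα5KO libraries was ITGA5 fl/fl replicate 1, and without it the difference was -0.34.

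Other genes of these families and of their partners were read from fixed lists. Of 11 other S100 genes 4 had enough counts to be tested, and 2 were called, both higher. Of all tested genes 3.56% were called higher. The 2 were S100a8 and S100a9, the subunits of calprotectin, with log2 fold changes of 1.51 ± 0.29 and 1.55 ± 0.34 (SE; adjusted p = 0.00669 and 0.0145, edgeR). S100a8 lay between 5.7 and 10.1 CPM in controls and between 11.9 and 33.4 CPM in Myα5KO libraries, and S100a9 between 6.9 and 14.9 against 16.5 and 55.5 CPM. They moved with the neutrophil markers of the libraries, of which 7 of 10 tested genes were higher, these 2 included, while Ly6g had 0 to 2 counts and Cxcr2 7 or 8 counts in each library. The call of S100a9 was lost in DESeq2 (adjusted p = 0.0778) and without ITGA5 fl/fl replicate 2 (adjusted p = 0.0588, edgeR). Of 7 other annexins 5 were tested and 0 called, with 1 at an unadjusted p under 0.05. Anxa10 and S100z had 0 counts in all libraries.

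Of 16 partner and receptor genes 14 were tested and 4 called, against 8.75% of all tested genes. Ahnak, which encodes a giant scaffold bound by annexin A2 and S100A10 at the membrane, gave 2795, 2521 and 2678 CPM in controls and 2205, 2123 and 1759 CPM in Myα5KO libraries. It fell by 0.39 on the log2 scale (SE 0.091, adjusted p = 0.0169, edgeR). The call was lost without ITGA5 fl/fl replicate 1 or replicate 3 (adjusted p = 0.0600 and 0.0632, edgeR). Il1a, the cytokine gene whose product leaves cells with S100A13, gave 130.6, 211.5 and 233.4 CPM against 81.7, 75.3 and 72.7 CPM. It fell by 1.33 on the log2 scale (SE 0.15, adjusted p = 0.000272, edgeR). The control with the lowest value was ITGA5 fl/fl replicate 1.

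Hltf, a helicase-like factor that regulates the start region of other genes, gave 28.4 to 30.6 CPM in controls and 38.3 to 40.9 CPM in Myα5KO libraries, a log2 fold change of 0.42 ± 0.075 (SE, adjusted p = 0.00398, edgeR). Pla2g4a, the cytosolic phospholipase A2 that annexin A1 and the S100A10 complex can restrain, gave 25.3 to 27.1 CPM against 30.3 to 34.5 CPM. Its log2 fold change was 0.34 ± 0.083 (SE, adjusted p = 0.0228, edgeR), and the call was lost without any 1 of 5 of the 6 libraries, all but Myα5KO replicate 1 (adjusted p from 0.0506 to 0.0944). The remaining 10 tested partners, the formyl peptide receptor genes among them, did not pass the test. Of these 6 called S100 and partner genes, S100a8, S100a9, Ahnak and Pla2g4a were not called on log2(FPKM + 1) (adjusted p = 0.0831, 0.128, 0.0696 and 0.0658, limma), and only Il1a was called against a minimum of 1.5-fold. Of 12 membrane repair genes 11 were tested and 0 called, with 2 at an unadjusted p under 0.05.

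**Figure D5:**
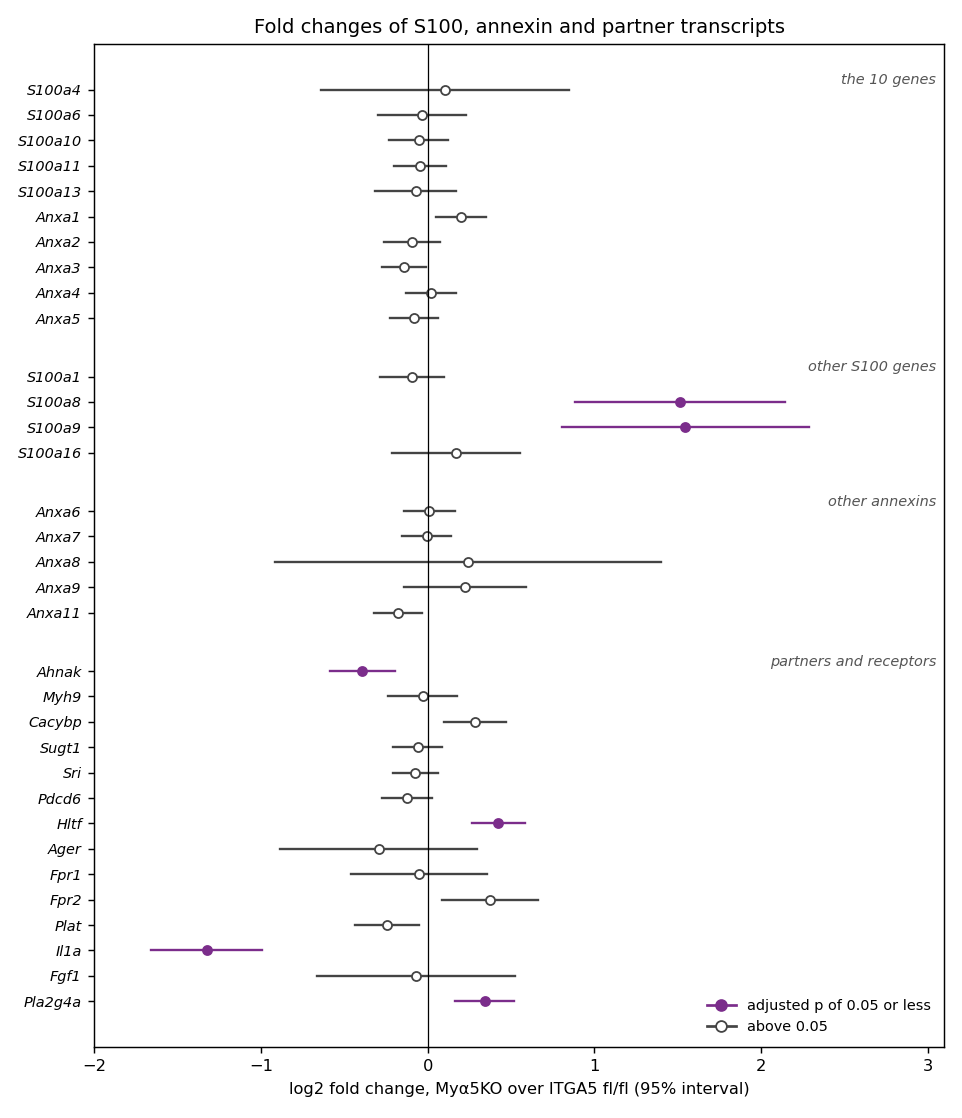
Log2 fold change, Myα5KO over ITGA5 fl/fl, with its 95% interval, for the 10 genes and for the tested genes of 3 lists (filled purple, adjusted p of 0.05 or less; open, above 0.05). The intervals of all 10 genes but Anxa1 and Anxa3 included 0, while S100a8, S100a9, Ahnak, Il1a, Hltf and Pla2g4a were called.

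Markers of other cells that the Ly6G-negative, CD11b-positive fraction could hold were summed per library. Fibroblast markers, a cell type with S100a4, S100a6 and annexins of its own, summed to 2118 to 2451 CPM in controls and 1629 to 2047 CPM in Myα5KO libraries, with 12 of 12 log2 fold changes below 0 and 1 called. Col3a1 and Col1a1 led this list. Macrophage markers summed to 15925 to 16059 against 14181 to 14975 CPM, with Fcgr1 called higher and Cd14 called lower. Cd14 alone gave 4650 to 4939 against 3280 to 3750 CPM. Without it, a sum taken after the values were seen, the other 9 genes gave 11120 to 11275 against 10743 to 11225 CPM, and the groups overlapped for 8 of these 9 genes. The sums of the whole fibroblast and macrophage lists, and those of neutrophil, T and NK cell and cardiomyocyte markers, reached the smallest p of the design (exact two-sided permutation p = 0.1, adjusted over the 10 lists 0.2). Markers of T and NK cells summed to 24.9 to 27.7 CPM against 29.7 to 32.0 CPM, and those of cardiomyocytes to 24.2 to 26.5 against 15.9 to 19.6 CPM. Cd4 and Nkg7 led the T and NK cell list. Most of its sum came from Cd4, with means of 19.3 CPM in controls and 20.9 CPM in Myα5KO libraries. The groups overlapped for Cd4, and which cells carried it was not tested. The other sums overlapped between the groups, at 372 to 413 against 389.8 to 444 CPM for endothelial cells, 3241 to 5000.3 against 2544 to 3529 CPM for monocytes, 109 to 147 against 145 to 153 CPM for dendritic cells and 76.3 to 121 against 119 to 194 CPM for B cells. Within these lists 8 of 8 B cell markers had log2 fold changes above 0, with 2 called higher and 7 at an unadjusted p under 0.05. Of 10 monocyte markers 4 were called higher and 1 lower, of 10 dendritic cell markers 2 were called higher, and of 10 endothelial markers 1 was called in each direction. Of 5 tested T and NK cell markers 5 lay above 0 with 0 called, and 3 of 9 tested cardiomyocyte markers were called lower. Of all tested genes 3.56% were called higher and 5.19% lower, and 23.1% had an unadjusted p under 0.05 (edgeR). The part of the shifts in these marker lists in the values of the 10 genes was not tested.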

How the data were processed

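Per the labels, the 6 libraries fell into 3 ITGA5 fl/fl and 3 Myα5KO samples. The authors aligned filtered paired-end reads to GRCm38 with TopHat2 2.0.9 and counted reads per gene with HTSeq 0.6.1, and the deposited counts are whole numbers without normalization. The authors also deposited FPKM values, which equal the count divided by gene length and a constant per library. These served for comparing levels between genes. Genes were tested on the deposited counts with edgeR 4.0.16 in R 4.3.3 (TMM, quasi-likelihood test, default filter with a minimum count of 10 and a minimum total of 15), over 14522 genes at once, with Benjamini-Hochberg adjustment and a threshold of 0.05. Ratios, shares and marker sums were compared by exact two-sided permutation tests over libraries (SciPy 1.17.1). The scripts were tested on simulated data. Alternatives were DESeq2 1.42.0, limma 3.58.1 (voom, and trend on log2(FPKM + 1) and log2(FPKM + 0.1)), other scalings and filters, the replicate number as a block, a stricter threshold of 0.01, a test against 1.5-fold and each library left out. Genes named are the 10 members, Itga5, called genes of the family, partner and membrane repair lists, and markers that check the cell type or lead a marker list. Anxa10 and S100z (for their zero counts), Cacybp and Fpr2 were named after their values were seen. The members and lists were chosen with earlier results of these data known. Depth was 15424451 to 18419287 counts per library. Reads were amplified and carry no molecular identifiers, and the precision this depth gives covers counting error only. Protein sequences and the start regions of S100a10 and Anxa3 were not used here.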

Additional observations from a re-analysis of the deposited data

How the results depend on the processing

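No member was called under any alternative but 1, though DESeq2 gave S100a4 no adjusted p. With library totals alone 1 member was called, Anxa1 with higher expression, and the median log2 fold change of all genes moved from 0.01 to 0.10. The number of called genes among all tested was 1271. It was 1730 with library totals alone, the setting that called Anxa1, and 1738 with no count filter, over 27687 genes. It was 472 on log2(FPKM + 1), 448 on log2(FPKM + 0.1), 470 at an adjusted p of 0.01, 15 in the test against 1.5-fold, and between 616 (without ITGA5 fl/fl replicate 3) and 1091 with 1 library left out. Without ITGA5 fl/fl replicate 2 it was 723, and without Myα5KO replicate 2 it was 819.

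The sign of several small estimates changed. With library totals alone the log2 fold changes were 0.049 for S100a6, 0.026 for S100a10, 0.035 for S100a11 and 0.0077 for S100a13. Over the 6 fits with 1 library left out, S100a4 ran from -0.17 to 0.32, S100a6 from -0.17 to 0.10, S100a10 from -0.14 to 0.023, S100a11 from -0.11 to 0.0037, S100a13 from -0.20 to 0.0060 and Anxa4 from -0.031 to 0.053. Anxa1, Anxa2, Anxa3 and Anxa5 kept their sign in all 16 alternatives with estimates of their own, while the stricter threshold and the test against 1.5-fold reuse the estimates. The difference in the log2 ratio of S100a10 to Anxa2 ran from -0.011 to 0.086 with 1 library left out, that of S100a11 to Anxa1 from -0.34 to -0.18, and that of the share of counts from -0.00018 to 0.011 percentage points. The cause of these changes was not tested.

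The labels do not say whether same-numbered libraries were paired. The correlations of their deviations across genes were 0.05, -0.09 and 0.04, and those of differently numbered libraries ran from -0.12 to 0.09. With 3 libraries per group these values cannot settle whether a pairing existed. With the replicate block 1181 genes and 0 members were called, and the ratios of S100a10 to Anxa2 and of S100a11 to Anxa1 differed by 0.04 and -0.24 (exact sign-flip permutation p = 0.75 and 0.25). S100a4, with 14 to 29 counts per library, is the member whose low count limits the comparison. The part of the overlap with Gm42674 in that count was not tested.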

Other observations

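Across the 6 libraries, log2 CPM of S100a10 and Anxa2 had a Pearson r of 0.849 (exact permutation p = 0.0292, adjusted over the 2 pairs examined 0.0583) and a Spearman rho of 0.714 (exact permutation p = 0.136, adjusted 0.272). Without the 2 libraries farthest from the median of Anxa2, ITGA5 fl/fl replicates 2 and 3, r was 0.531. Leaving out the extremes narrows the range of Anxa2, which by itself can lower r. The fall therefore cannot say which libraries carry the relation. The libraries share their scaling. For S100a11 and Anxa1, r was -0.267 (exact permutation p = 0.606, adjusted 0.606) and rho -0.371 (exact permutation p = 0.497, adjusted 0.497), and r was -0.539 without ITGA5 fl/fl replicate 2 and Myα5KO replicate 3. Both pairs were examined after the values had been seen. Of the remaining partners and relatives, Cacybp, whose product binds calcyclin, lay at 31.97 to 34.8 CPM in controls and 38.4 to 46.2 CPM in Myα5KO libraries (log2 fold change 0.28 ± 0.087, adjusted p = 0.0600, edgeR), and Fpr2, a receptor for annexin A1, at 5.8 to 6.4 against 7.3 to 8.6 CPM (log2 fold change 0.37 ± 0.13, adjusted p = 0.108, edgeR). Neither passed the test, and both were named after their values were seen.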
